A study of Homo sapiens with 3 samples.

Results

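The mitochondrial chromosome of human cells carries 37 genes, and all 37 were taken here by their chromosome name, MT, from the 58302 genes counted in each library. They comprise 13 genes for protein subunits of the respiratory chain, 2 ribosomal RNA genes and 22 transfer RNA genes. The libraries were 3 replicates of C4-2, a wild-type prostate adenocarcinoma line derived from LNCaP cells, with no treatment named in the labels. The series was designed to set adenocarcinoma cells against neuroendocrine cells and to follow depletion of neuropilin-2 by siRNA in the neuroendocrine cells; other libraries were not analysed here, and with 1 group the values below describe C4-2 alone. Nothing in the labels tells whether the replicates were grown separately, so p-values bear on the variation among these 3 libraries, part or all of which may be technical.

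The mitochondrial chromosome is transcribed from both strands into long RNAs that cover many genes each. Transfer RNAs lie between most of the messenger and ribosomal RNAs and are cut out, which frees the neighbouring RNAs, and most of the messenger RNAs then receive a poly(A) tail. The proteins are core subunits of complexes I, III, IV and V, the remaining subunits of which are encoded in the nucleus, and the ribosomal and transfer RNAs serve to translate them inside the organelle. Tumour cells of the prostate are known for active oxidative metabolism of citrate, which normal prostate epithelium secretes.

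The libraries held 51200272, 47513470 and 49965601 reads assigned to genes in replicates 1, 2 and 3. All 8 markers of luminal prostate epithelium were detected, meaning at least 10 reads in every library, with a summed level of 3931 to 3994 TPM, a level per base of exon that has the same total in every library. The 5 neuroendocrine markers summed to 5.28 to 6.79 TPM, the 3 basal markers to 0.866 to 1.08 TPM with TP63 and KRT5 at 0 reads, and the 3 blood markers to at most 0.0155 TPM with CD3E and HBB at 0 reads. The 3 fibroblast and endothelial markers summed to 9.82 to 10.6 TPM, nearly all of it COL1A1, a collagen gene, with 1675, 1599 and 1605 reads, while DCN had at most 4 reads and PECAM1 at most 6. Replicate 2 stood apart from the other libraries in the mitochondrial genes, and the share of reads and the counts of varying genes are also given without it. Of genes with 1 to 20 reads, 78.6%, 75.1% and 81.6% had an even count in replicates 1, 2 and 3, and the recorded options do not join the mates of a pair. Tests that treat reads as independent are therefore also given with the statistic divided by 2.

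The sequences that bear most on how these genes could be counted are those where genes overlap and those of the transfer RNAs that were detected. MT-ATP8 and MT-ATP6, which encode membrane subunits of ATP synthase, share 46 bases, and MT-ND4L and MT-ND4, which encode subunits of complex I, share 7. In the sequences below, from the GRCh38 mitochondrial chromosome, plus strand, the shared bases are in capitals. The first stretch runs from base 8497 to base 8602 and the second from 10730 to 10796.
MT-ATP8 and MT-ATP6: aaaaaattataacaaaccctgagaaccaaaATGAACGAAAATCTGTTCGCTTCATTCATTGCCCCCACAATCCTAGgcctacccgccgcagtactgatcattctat
MT-ND4L and MT-ND4: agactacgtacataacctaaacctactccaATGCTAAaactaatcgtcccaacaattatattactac
Each capital run starts with the ATG of the downstream gene and ends with the last base of the upstream gene, TAG in MT-ATP8 and TAA in MT-ND4L. With the counting options recorded in the files, a read touching either shared run overlaps 2 genes and is dropped. Of the 13 protein-coding genes 9 started with ATG, 3 with ATA and 1 with ATT, and 6 ended in an incomplete codon, a single T in 5 and TA in 1, which the poly(A) tail is known to complete to a stop codon.

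The 3 detected transfer RNA genes are shown next in their own 5′ to 3′ direction, with the anticodon in capitals. MT-TF, for phenylalanine, occupies bases 577 to 647 of the plus strand. MT-TY, for tyrosine, occupies bases 5826 to 5891 of the minus strand, and MT-TP, for proline, bases 15956 to 16023 of the minus strand.
MT-TF: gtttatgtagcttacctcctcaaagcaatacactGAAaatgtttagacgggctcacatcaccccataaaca
MT-TY: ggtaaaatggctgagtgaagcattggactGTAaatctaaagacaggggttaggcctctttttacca
MT-TP: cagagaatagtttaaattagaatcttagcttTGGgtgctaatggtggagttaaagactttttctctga
MT-TF and MT-TP border the control region, which holds no annotated gene, whereas most other transfer RNA genes have an annotated gene within a few bases on each side.

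Mitochondrially encoded genes took 3.30%, 2.87% and 3.33% of assigned reads in replicates 1, 2 and 3. Of these reads, 99.88 ± 0.0341% (SD, n = 3) fell in the 13 protein-coding genes, 0.0693 ± 0.0115% in the 22 transfer RNA genes and 0.0490 ± 0.0453% in the ribosomal RNA genes. Scaled by exon length, the members made up 10.1 ± 0.798% of all TPM. Complex I genes held 42.9 ± 0.137% of the mitochondrial reads, the 3 complex IV genes 37.7 ± 0.400%, the 2 complex V genes 9.78 ± 0.476% and the complex III gene MT-CYB 9.51 ± 0.175%. These shares of reads are not scaled by gene length. Without replicate 2, mitochondrial genes took 3.31% of assigned reads. In total, 18 of the 37 genes were detected: all 13 protein-coding genes, both ribosomal RNA genes and 3 transfer RNA genes.

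**Figure D1:**
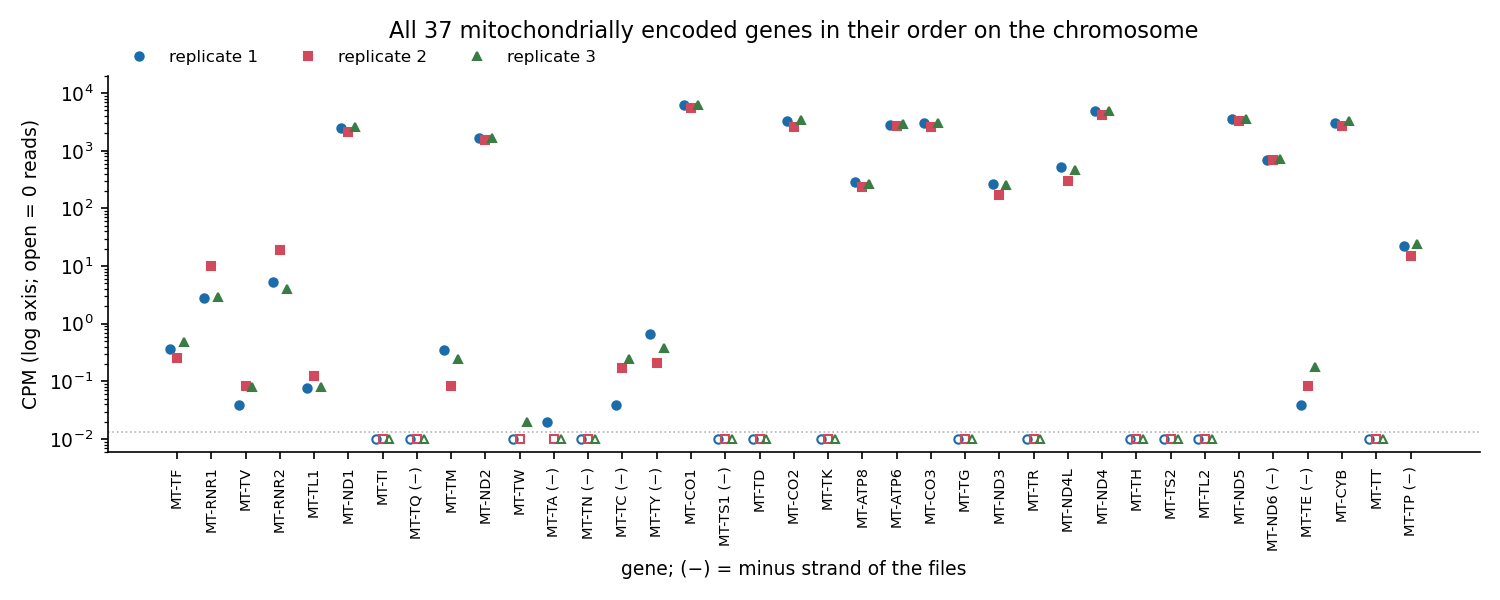
Level of each of the 37 mitochondrially encoded genes in CPM, reads scaled to the size of the library (log axis), in the order of the genes on the chromosome, in the 3 C4-2 libraries. Filled symbols are libraries with reads and open symbols, drawn at the bottom, libraries with 0 reads; the protein-coding genes form the upper band and most transfer RNA genes lie at or near 0.

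The 7 complex I genes, which encode membrane subunits of NADH dehydrogenase, spanned the widest range of levels as a ratio of the highest to the lowest mean. MT-ND4 was the highest of them at 10983, 9420 and 10717 TPM in replicates 1, 2 and 3. MT-ND1 followed at 8004, 6888 and 8201 TPM and MT-ND5 at 5968, 5556 and 5932 TPM. The 3 genes did not overlap in range.
MT-ND2 stood at 4937, 4490 and 4770 TPM, and MT-ND4L, which precedes MT-ND4 on the same messenger RNA, at 5313, 3150 and 4646 TPM. The range of MT-ND4L took in all values of MT-ND2. MT-ND6, the only protein-coding gene on the minus strand, stood at 4089, 4083 and 4148 TPM and had the smallest spread of the 13, with a coefficient of variation of 0.875%. MT-ND3 was the lowest of the 13 at 2342, 1554 and 2199 TPM, below every other member in each library.

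MT-CYB, which encodes cytochrome b, the electron carrier of complex III, stood at 8261, 7333 and 8475 TPM. It exceeded MT-ND1 in 3 of 3 libraries, by a factor of 1.04 on average, and the ranges of the 2 genes overlapped.

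The complex IV genes MT-CO1, MT-CO2 and MT-CO3 encode the catalytic core of cytochrome c oxidase, and they were among the 4 highest members in mean TPM. MT-CO2 stood at 14457, 11431 and 14663 TPM, MT-CO1 at 12478, 11100 and 12119 TPM, and MT-CO3 at 11598, 10275 and 11417 TPM. MT-CO1 was above MT-CO3 in each library, but their ranges overlapped across libraries. MT-CO2 had the largest spread of the 3, since replicate 2 lay well below the others.

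In complex V, MT-ATP6, the proton channel subunit, stood at 12663, 12354 and 12831 TPM. MT-ATP8, the small subunit encoded upstream of it on the same messenger RNA, stood at 4234, 3538 and 3806 TPM. The ranges did not overlap.

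Ordered by mean TPM, the 13 genes ran MT-CO2, MT-ATP6, MT-CO1, MT-CO3, MT-ND4, MT-CYB, MT-ND1, MT-ND5, MT-ND2, MT-ND4L, MT-ND6, MT-ATP8 and MT-ND3. Ranges over the libraries separated neighbours at 4 places: below MT-ND4, below MT-ND1, below MT-ND5 and below MT-ATP8. All other neighbours overlapped. MT-CO2 led in replicates 1 and 3 and MT-ATP6 in replicate 2, and ranks 3 to 8 were the same in every library. The highest of the 13 exceeded the lowest 6.17-, 7.95- and 6.67-fold in replicates 1, 2 and 3. Of the 13, 10 exceeded every one of 19695 nuclear protein-coding genes in mean TPM, and 14 nuclear protein-coding genes exceeded MT-ND3. Nuclear TPM divides by all annotated exons of a gene together. Their length can exceed that of 1 messenger RNA, which lowers the level, and the size of this effect was not tested.

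**Figure D2:**
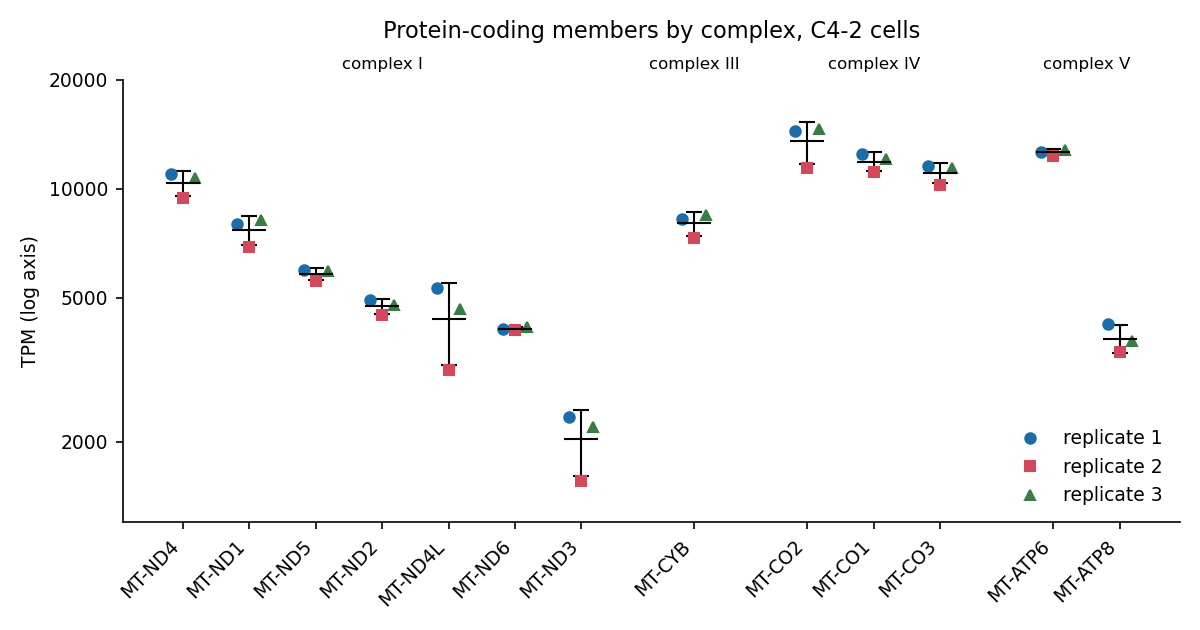
TPM (log axis) of the 13 protein-coding members by respiratory complex in the 3 C4-2 libraries, with the mean (bar) and SD (n = 3). Replicate 2 is the lowest point in all 13 genes, and its distance from the others is largest for MT-ND4L and MT-ND3.

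A gene's GC content went with its level among the 13 (Pearson r 0.79, Spearman rho 0.69 across 13 genes), and its length less so (r 0.46, rho 0.47). These genes share libraries and precursor RNAs, so the values are descriptive. The level used was TPM, which dropped reads can lower, and the relation was not computed on another scale. GC content ran from 39.6% in MT-ATP8 to 47.7% in MT-ND1. MT-ND6 differed from the others in its sense-strand composition, with 35.6% G against 6.28% to 16.2% in the 12 plus-strand genes. The order of genes along the chromosome showed little relation to the level (rho −0.24).

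Genes that share a messenger RNA or a locus were set against each other within each library. MT-ATP8 lay 1.71 ± 0.117 log2 units below MT-ATP6, at 0.334, 0.286 and 0.297 of its TPM. MT-ND4L lay 1.28 ± 0.274 log2 units below MT-ND4, at 0.484, 0.334 and 0.434 of its TPM. Both differences had the same sign in 3 of 3 libraries. MT-ND6 lay 0.50 ± 0.0520 log2 units below MT-ND5, its neighbour on the opposite strand, at 0.685, 0.735 and 0.699 of its TPM, again in 3 of 3 libraries. For each of these 3 pairs, the exact two-sided sign-flip permutation test gave p = 0.25, the smallest that 3 libraries allow, or 0.333 after Benjamini-Hochberg adjustment over 4 pairs.
Strand was ignored in the counting, so reads from the RNA opposite MT-ND6 cannot be told apart from its own.

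Because reads that touch 2 genes or fit several places are dropped, levels were also scaled by the number of start positions from which a read would touch only 1 gene and have no exact copy in the nuclear genome, a scaling chosen after the levels were seen. For reads of 50, 75 and 100 bases, MT-ATP8 had 100, 88 and 63 such positions on its 207 bases. MT-ATP6 had 317, 417 and 476 on 681 bases. The sources used here do not give the read length, so all 3 lengths are shown. Each read was taken alone, though a mate can place a read from a copied stretch, and inexact copies were not considered. On this scale the log2 difference of MT-ATP8 from MT-ATP6 was −1.77, −1.19 and −0.51, so its size depended on the read length while its direction held. The difference of MT-ND4L from MT-ND4 was −1.09, −0.91 and −0.76, and that of MT-ND6 from MT-ND5 was −0.15, −0.24 and −0.28. By the mean of the libraries, MT-ATP6 was the highest and MT-ND3 the lowest of the 13 at each of the 3 lengths. In replicate 1, however, MT-CO1 exceeded MT-ATP6 at 75 bases (6.785 against 6.781 CPM per position) and at 100 bases (6.06 against 5.94).

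The 13 protein-coding genes lay far above the nuclear-encoded subunits of the same complexes. The median of the mitochondrial members was 7698 TPM, against 117 TPM for 75 nuclear subunits, a ratio of 65.8 ± 6.53 (SD, n = 3 libraries). The ratio was 60.5 ± 2.73 for complex I, 26.3 ± 2.10 for complex III, 63.3 ± 3.28 for complex IV and 64.7 ± 2.53 for complex V. None of the 75 nuclear subunits exceeded the mean of MT-ND3, 2032 ± 420 TPM. The closest was ATP5F1B, the catalytic beta subunit of ATP synthase, at 2002 ± 32.0 TPM, which lay above MT-ND3 in replicate 2, and the highest in the other complexes were NDUFS5 at 796 ± 40.3, COX6B1 at 754 ± 31.7 and UQCRH at 463 ± 8.93 TPM.
The median of the mitochondrial members was higher in 3 of 3 libraries for each complex. The number of genome copies per cell was not measured, so transcripts per gene copy are not given. The ratios also depend on nuclear exon lengths, which count all annotated exons together and can lower nuclear TPM. Other genes overlap up to 61.6% of the exons of a nuclear subunit, in ATP5ME, and reads there are dropped. The log2 gap of medians was 6.03 in TPM, 5.91 per base not shared with another gene and 4.84 without length scaling.

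**Figure D3:**
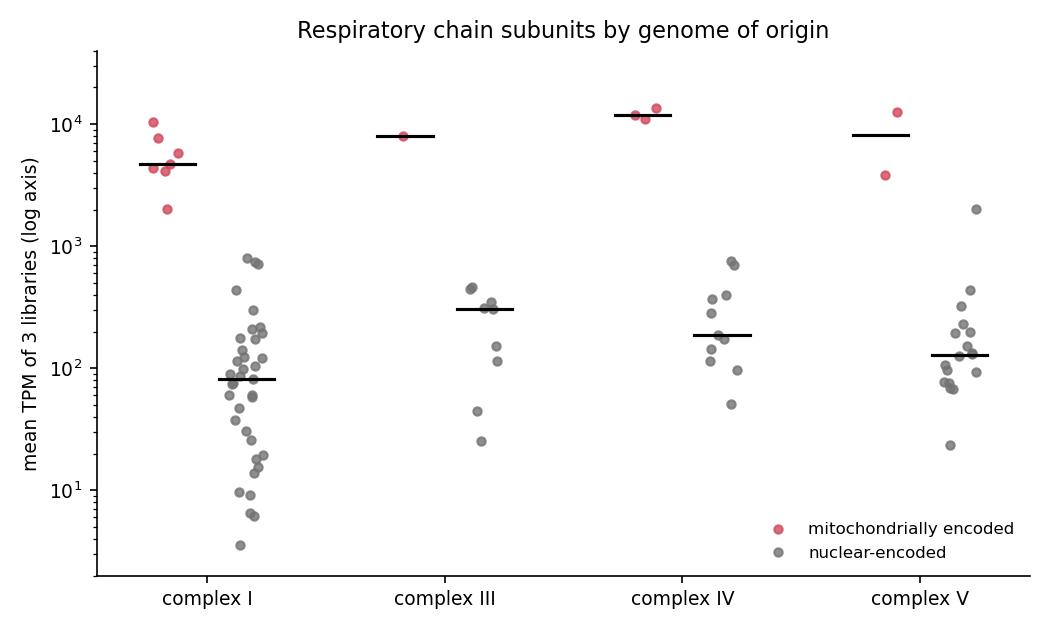
Mean TPM of 3 C4-2 libraries (log axis) for mitochondrially encoded (left of each pair) and nuclear-encoded (right) subunits of each complex, 1 point per gene, with a bar at the median of the points. The mitochondrial points lie above the nuclear points in all 4 complexes.

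Genes for the upkeep and transcription of mitochondrial DNA and for the processing of its RNA were all detected, 15 of 15 and 24 of 24. The mitochondrial RNA polymerase gene POLRMT stood at 88.8 ± 0.914 TPM, the DNA polymerase gene POLG at 67.0, 70.0 and 67.4 TPM in replicates 1, 2 and 3 and the single-strand binding protein gene SSBP1 at 64.0 ± 3.26 TPM. In the processing list, HSD17B10, a subunit of mitochondrial RNase P, stood at 373 ± 2.16 TPM, FASTK at 169 ± 6.58 and ELAC2, which cuts the 3′ end of transfer RNAs, at 84.8 ± 2.83 TPM. The list medians were 27.4 ± 0.292 and 33.2 ± 1.31 TPM. Other genes overlap 7.66% of the POLG exons, where reads are dropped. The levels of the 13 members lay above all of these genes.

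All 13 protein-coding genes were lowest in replicate 2, as were 30.7% of all detected genes and 39.6% of genes averaging 5000 or more reads. The 13 genes share libraries and precursor RNAs, so here and in the tests below they are not 13 independent observations. Log2 CPM used library sizes adjusted by TMM, whereas the CPM values used the total of assigned reads. On the log2 CPM scale, replicate 2 lay below the mean of replicates 1 and 3 by 0.71 in MT-ND4L, 0.60 in MT-ND3, 0.40 in MT-CO2 and 0.29 in MT-ND1. In MT-ATP6 the difference was −0.10 and in MT-ND6 −0.07. The median over the 13 was −0.24, against 0.00 over all 21039 detected genes. Their median SD of log2 CPM was 0.15, against 0.12 over all detected genes and 0.048 over the 2459 genes with a mean of at least 5000 reads.

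By a chi-square test of equal expression in the 3 libraries, adjusted by Benjamini-Hochberg over all detected genes, 13 of 13 protein-coding genes and 17 of 18 detected members varied between libraries beyond counting noise. The same test called 46.1% of all detected genes and 76.7% of the genes that averaged 5000 or more reads, and calls of this kind are common at this depth. MT-TF was the member that was not called. With the statistic divided by 2, 16 of 18 members were called, against 17.6% of detected genes and 53.4% of genes with at least 5000 reads. When the variance was set by a negative binomial model with edgeR's common dispersion, which allows for the spread common to all genes, 5 of 18 members were called, against 4.24% of detected genes and 0.163% of the 2459 genes with at least 5000 reads. The 5 were MT-RNR1, MT-RNR2, MT-ND3, MT-ND4L and MT-TP. A single dispersion does not suit all counts. An unadjusted p below 0.05 came in 9 of those 2459 genes, but in 3300 of all 21039 detected genes. The test is thus strict at high counts, where all 13 protein-coding members lie, and more lenient elsewhere. The lack of a call in a gene with many reads therefore says little about its spread. These calls rest on replicate 2: between replicates 1 and 3 alone, with the same variance, 0 of 19 members tested were called and 0 had an unadjusted p below 0.05, against 1.5% of 21785 genes tested called and 10.9% with such an unadjusted p. MT-ND3 and MT-ND4L were 2 of the 4 genes called among those 2459, and the other 2 were SNORA73B and SNORD3A, small nucleolar RNA genes named after their values were seen. Libraries were also compared pair by pair, which sets single libraries against each other and, with the chi-square test, covers counting error only. Between replicates 1 and 2, 13 of 13 protein-coding genes differed, against 23.8% of genes tested and 46.9% of genes averaging 5000 or more reads. With the statistic divided by 2 it was 12, against 6.58% and 24.3%. Between replicates 2 and 3, 13 of 13 differed, against 32.8% and 68.2%, and 13 with the divided statistic, against 14.9% and 50.5%. Between replicates 1 and 3, 10 of 13 differed, against 23.8% and 45.3%, and 8 with the divided statistic, against 5.89% and 20.1%. MT-ND2, MT-CO1 and MT-ND4 were the 3 not called there. With the negative binomial variance the same 5 members as above were called between replicates 1 and 2, against 1.22% of genes tested, and between replicates 2 and 3, against 1.98%.

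Short nuclear genes were also lower in replicate 2. Among nuclear protein-coding genes with a mean of at least 5000 reads, the median difference of replicate 2 from the others was −0.12 in 9 genes shorter than 500 bases, −0.14 in 19 genes of 500 to 1000 bases, −0.08 in 126 genes of 1000 to 2000 bases, and −0.04, −0.02 and −0.01 in 3 bins of longer genes. The protein-coding members are 207 to 1812 bases long, each a single stretch. The nuclear lengths count all annotated exons of a gene together and can exceed 1 messenger RNA, so the 2 kinds of length are not alike. MT-ND4L and MT-ND3, with 297 and 346 bases, had the largest differences, but MT-ATP8, the shortest, had −0.24, and across the 13 the difference followed length only weakly (r 0.45, rho 0.29). Nuclear respiratory subunits had median differences of −0.07 in complex I, −0.03 in complex III, −0.04 in complex IV and −0.02 in complex V. The part of gene length in the result was not tested.
Among nuclear subunits, the chi-square test called 26 of 37 in complex I, 8 of 9 in complex III, 7 of 11 in complex IV and 15 of 18 in complex V. With the statistic divided by 2 it called 17, 6, 4 and 8. With the negative binomial variance, which is strict at high counts, it called 0 of these 75 genes. An unadjusted p below 0.05 came in 3 in complex I, 0 in complexes III and IV and 1 in complex V. For the genes of DNA upkeep and transcription the chi-square test called 9 of 15. It called 0 with the divided statistic, where 3 had an unadjusted p below 0.05, and 0 with the negative binomial variance, where 0 did. For the RNA processing genes the counts were 13 of 24, then 4 with the divided statistic and 0 with the negative binomial variance, where 0 had an unadjusted p below 0.05. Over all detected genes the 3 tests called 46.1%, 17.6% and 4.24%, in the same order. NDUFC2, NDUFA3 and ATP5MF, accessory subunits, had the largest spread among respiratory subunits called by the chi-square test, with SDs of log2 CPM of 0.25, 0.24 and 0.24, against 0.42 in MT-ND4L and 0.35 in MT-ND3.

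**Figure D4:**
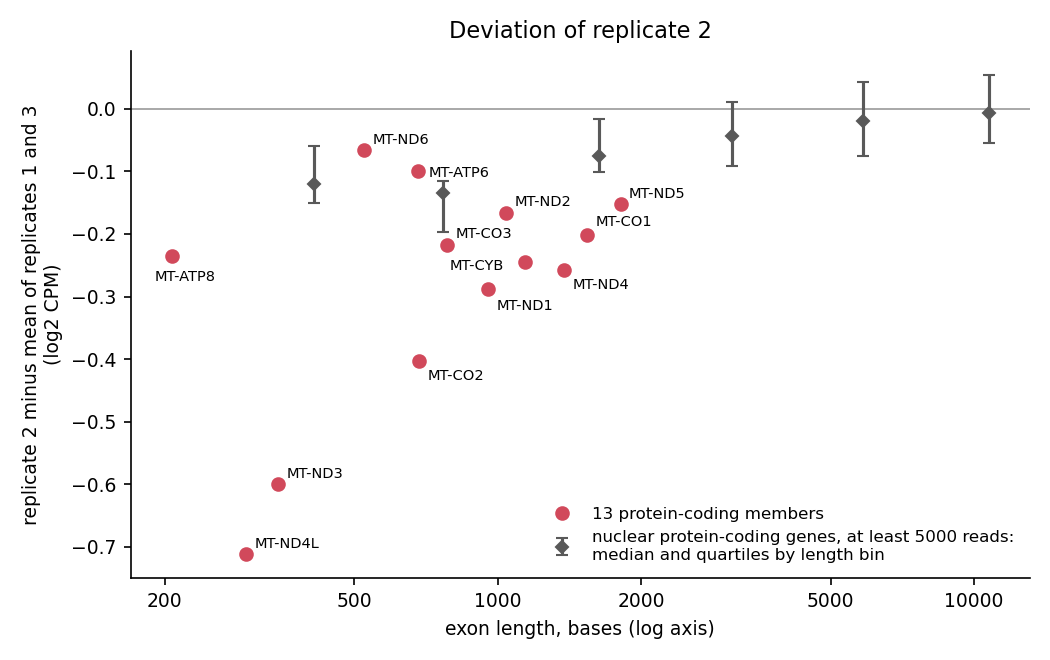
Difference of replicate 2 from the mean of replicates 1 and 3 in log2 CPM against exon length (log axis), for the 13 protein-coding members (points) and for nuclear protein-coding genes with a mean of at least 5000 reads (diamonds, median with quartiles, in length bins). All 13 members lie below 0, and MT-ND4L and MT-ND3 lie lowest, at −0.71 and −0.60. Nuclear lengths count all annotated exons of a gene together. Log2 CPM used library sizes adjusted by TMM.

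The ribosomal RNA genes went the other way. MT-RNR1, the RNA of the small mitochondrial ribosomal subunit, had 144, 476 and 146 reads in replicates 1, 2 and 3, and MT-RNR2, that of the large subunit, had 274, 904 and 202 reads. Replicate 2 was the highest in both and lay 1.77 and 2.00 log2 units above the mean of the others. MT-RNR1 stood at 2.81 and 2.92 CPM in replicates 1 and 3, and MT-RNR2 at 5.35 and 4.04 CPM, a difference that the chi-square test called between these 2 libraries, though not with the statistic divided by 2. The chi-square test called both (adjusted p = 7.8e-66 and 1.0e-149), and so did the negative binomial test (adjusted p = 2.5e-25 and 2.2e-40), which called neither between replicates 1 and 3.
The kit named in the labels is designed to deplete these RNAs along with the cytoplasmic ribosomal RNAs, so the counts are of what remained after that step. The part of depletion in the difference of replicate 2 was not tested. Together they held 8.16, 29.0 and 6.96 CPM, and there were 4034, 987 and 4775 protein-coding mitochondrial reads per ribosomal read. Their TPM, 16.9 ± 13.5 for MT-RNR1 and 18.6 ± 16.5 for MT-RNR2, lay below that of every protein-coding member. MT-RNR2 exceeded MT-RNR1 by 0.07 ± 0.262 log2 units per base, in 2 of 3 libraries (exact sign-flip permutation p = 1), a difference within the spread between libraries; it was −0.0106 without replicate 1 and −0.0100 without replicate 2. Scaled by start positions open to reads of 50, 75 and 100 bases, MT-RNR2 lay below MT-RNR1, at −0.55, −0.41 and −0.34.

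Transfer RNA genes were mostly at 0. Of the 22, 3 were detected, 7 had some reads but at most 18 in any library, and 12 had 0 reads in all 3 libraries. A count of 0 allows up to 3 reads, or 0.0631 CPM in the smallest library. Where both mates are counted, it allows up to 6 reads, or 0.126 CPM. Such limits cover counting error only, and they set no limit on the RNA of a gene to which no read could be assigned. MT-TP had 1147, 722 and 1224 reads, 93.5 ± 0.220% of all transfer RNA reads. MT-TF had 19, 12 and 24 reads, and MT-TY 34, 10 and 19. All 3 were lowest in replicate 2. The negative binomial test called MT-TP (adjusted p = 0.0082), where replicate 2 lay 0.65 log2 units below the others, and not between replicates 1 and 3, but neither MT-TF (adjusted p = 0.65) nor MT-TY (adjusted p = 0.071).

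Reads in transfer RNA genes were set beside the start positions from which a read could be assigned. For reads of 75 bases, 7 of the 22 genes had at least 1 start position from which a read would touch no other gene and have no exact nuclear copy, and all 7 had reads. Some of these 7 had only 1 read, in 1 library. Of the 15 with no such position, 12 had 0 reads in every library, but another had 18, 4 and 12 reads in replicates 1, 2 and 3. For reads of 50 bases, 18 genes had such a position and 10 of them had reads, while the other 4 genes had 0. For 100 bases, the 2 genes with one were MT-TF and MT-TP, both with reads, and 12 of the other 20 genes had 0. The transfer RNA genes are 59 to 75 bases long, so a read longer than that reaches past the gene.
MT-TP and MT-TF had almost the same number of start positions, 70 and 71 at each of the 3 lengths, but MT-TP had 57.2 ± 5.35 reads per MT-TF read, higher in 3 of 3 libraries. Strand was ignored, so reads of MT-TP and of RNA from the opposite strand cannot be told apart.

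Copies of mitochondrial genes in nuclear DNA can take or hide reads. The files hold 404 nuclear pseudogenes of mitochondrial genes, of which 22 were detected, 283 had 0 reads in all libraries, and 4 had at least 100 reads in every library: MTATP6P1, MTCO1P12, MTND2P28 and MTND5P11. MTATP6P1, a copy of MT-ATP6 on chromosome 1 (633696 to 634376, plus strand, GRCh38), had 23654, 19086 and 23551 reads, 92.0 ± 1.01% of all pseudogene reads. That equalled 16.3, 14.7 and 16.1 reads per 100 reads of MT-ATP6, a gene of the same length. Its neighbours in the same block had fewer per 100 reads of their mitochondrial gene, not scaled by length: 0.447 ± 0.00769 in MTND2P28, 0.136 ± 0.0159 in MTCO1P12, 0.0101 ± 0.00305 in MTCO2P12 and 0.00862 ± 0.00242 in MTCO3P12, and MTATP8P1 had 0 reads. MTCO2P12, MTCO3P12 and MTATP8P1 were named for standing beside MTATP6P1, after its values were seen.

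The pseudogenes of this block were 97.6% to 98.7% identical to their mitochondrial genes. MTATP6P1 differed from MT-ATP6 at 10 of 681 bases (98.5% identity, longest identical run 141 bases), MTND2P28 from MT-ND2 at 17 of 1042 (98.4%), MTCO1P12 from MT-CO1 at 20 of 1542 (98.7%), MTCO2P12 from MT-CO2 at 12 of 682 (98.2%), MTCO3P12 from MT-CO3 at 10 of 547 aligned bases (98.2%) and MTATP8P1 from MT-ATP8 at 5 of 207 (97.6%). MTND5P11, on chromosome 5 (134924648 to 134926459, minus strand), was 93.0% identical to MT-ND5 and had 140, 158 and 167 reads. Adding the reads of MTATP6P1 gave MT-ATP6 a level of 14602 ± 381 TPM, above the 13517 ± 1810 TPM of MT-CO2, and widened the gap to MT-ATP8 to 1.92 log2 units. MTATP6P1 was lowest in replicate 2, as were the protein-coding mitochondrial genes, by 0.24 log2 units from the mean of replicates 1 and 3. The same difference was −0.10 in MT-ATP6 itself, −0.20 in MTND2P28 and −0.32 in MTCO2P12. It was 0.07 in MTCO1P12, 0.37 in MTCO3P12 and 0.11 in MTND5P11. MTCO2P12 and MTCO3P12 had at most 22 reads in any library.
Which reads came from which copy was not tested.

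**Figure D5:**
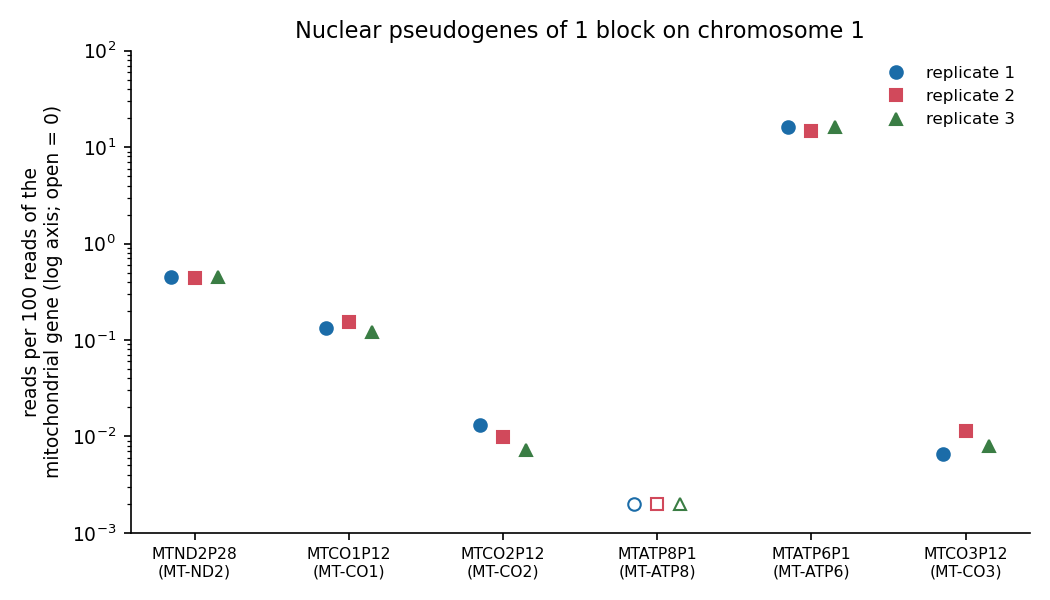
Reads of 6 nuclear pseudogenes of 1 block on chromosome 1, per 100 reads of the mitochondrial gene each copies (in brackets; log axis), in the 3 C4-2 libraries. MTATP6P1 lies at 14.7 to 16.3 in the 3 libraries, the other pseudogenes lie below 0.5, and open symbols mark 0 reads.

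Exact nuclear copies also bore unevenly on the protein-coding members. Of the 75-base stretches inside a gene, 36.6% had an exact nuclear copy in MT-CO1, 34.4% in MT-ND2, 28.0% in MT-ATP6, 17.1% in MT-ND1, 14.9% in MT-CO3, 10.5% in MT-CO2 and 7.10% in MT-ND6. The share was below 1% in the other 6 genes, MT-ATP8, MT-ND3, MT-ND4L, MT-ND4, MT-ND5 and MT-CYB. A read from such a stretch fits several places equally unless its mate places it, and reads reported at several places are dropped by the recorded options. The 7 genes with a share of 7.10% or more included the 4 highest of the 13. The copied share went with the level across the 13 genes, which share libraries and precursor RNAs, with r 0.42 and rho 0.51.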

How the data were processed

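Total RNA (770 ng per library) was depleted of ribosomal RNA and made into strand-specific libraries, per the labels' protocols. Per the submitters' processing notes, FastQC, Trim Galore, STAR 2.7.0f, featureCounts from Subread 1.6.3 and DESeq2 1.26.0 were used on GRCh38. The deposited values are raw counts of reads per gene on Ensembl release 90, per the file headers, whose options ignore strand and drop reads that map to several places or touch several genes.

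From these counts, TPM (over exon length and all genes) and CPM were computed with Python 3.11.15, pandas 2.3.3 and scipy 1.17.1. Names came from GENCODE 44, matched for 57532 of 58302 identifiers, and all 37 mitochondrial genes had the same coordinates there. TMM library sizes and the common dispersion (coefficient of variation 0.0737) came from edgeR 4.0.16, and DESeq2 1.42.0 gave alternative size factors. CPM used the total of assigned reads. Log2 CPM used the TMM library sizes and a prior count of 2, and log2 TPM a pseudocount of 0.1. The chi-square test of variation between libraries was run first on simulated counts. These held counting noise and, in some genes, a change set in replicate 2, with no other variation. Those counts lack the excess of even counts seen here, so the run does not show how the test behaves on these libraries. Detection needed 10 reads or more in each library, and adjusted p below 0.05 was called. Pseudogenes were aligned to their genes with Biopython 1.88.

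With 1 group there was no contrast between conditions. Named were all protein-coding, ribosomal and detected transfer RNA members, pseudogenes with at least 100 reads in every library and, of each list, the 3 highest and the called genes among its 3 most varying, of which the text gives a few. The members, lists and tests were chosen with earlier results of these data known.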

Additional observations from a re-analysis of the deposited data

How the results depend on the processing

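Of 80 alternative values for 10 results, 67 kept their direction and their side of the threshold, or, with no test, stayed near the main value. Size could still change: MT-ATP8 minus MT-ATP6 ran from −3.43 without length scaling to −0.51 with start positions of 100 bases, MT-ND6 minus MT-ND5 from −2.29 without length scaling to −0.15 with start positions of 50 bases, and MT-RNR2 minus MT-RNR1 was 0.76 without length scaling. The share of reads in mitochondrial genes was 3.08% to 3.31% over the sets of 2 libraries, and 10.1% when TPM replaced reads. The number of varying members was 11 to 17 over the sets of 2 libraries, with 11 without replicate 2, and 5 under the negative binomial test, or 0 under that test without replicate 2, an alternative chosen after seeing the data. MT-RNR2 minus MT-RNR1 was −0.0106 to 0.22 log2 units over the sets of 2 libraries, and turned to −0.55, −0.41 and −0.34 when scaled by the start positions open to reads of 50, 75 and 100 bases, a scaling chosen after seeing the data. The gap between the highest and lowest protein-coding members was 2.78 log2 units, 4.73 without length scaling, and 3.54 and 3.02 with start positions of 50 and 75 bases. The gap between mitochondrial and nuclear subunits was 6.03, and 4.84 without length scaling, which leaves out the division by exon length. No paired analysis was possible because there is 1 group.
Adding the reads of MTATP6P1 to MT-ATP6 was also chosen after seeing the data. Except where a value or the construction shows it, the cause was not tested. Reads that fit several places are not in the counts, and read length is not known here. A count of 0 reads in a transfer RNA gene allows up to 0.126 CPM of assignable reads where both mates are counted. It sets no limit on the RNA of a gene to which no read could be assigned.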
